A study of Homo sapiens with 23 samples.

Results

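Day 5 of the directed differentiation of H1-hESC cells into cardiomyocytes was compared with day 3, over all genes. H1-hESC, a long-established line of human embryonic stem cells, is wild type in the labels at every time. The day 5 libraries, labelled as cardiac progenitors, numbered 3, and the day 3 libraries, labelled as cardiac mesoderm, also numbered 3. These 6 libraries were chosen by their labelled day from 23 in all, which run from day 0 to day 28. The labels give mTeSR1 as the medium of the stem cells and RPMI with insulin for the cells that became cardiomyocytes. The agents that drove each step, and whether the libraries of a day came from separate cultures, are not given in the sources used here, so a p-value here reflects no more than the spread among these libraries. RNA was total RNA depleted of ribosomal RNA. Levels are in CPM, a gene's counts per 1000000 counts of its library, and sets of 3 values always stand in the order of replicates 1, 2 and 3 of a day.

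In the embryo, cells that leave the primitive streak become mesoderm, pass through a brief state marked by the factor MESP1, and enter the heart fields. There the factors NKX2-5, TBX5 and GATA4 come on, followed by the proteins of the contractile apparatus. The anterior mesoderm that forms the heart is also a neighbour of the foregut endoderm. Wnt signalling through beta-catenin drives formation of the streak and its mesoderm, whereas the later choice of the cardiac fate needs that signal to be low. Directed differentiation of stem cells is designed to follow the same order.

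The 3 markers of the cardiac progenitor label were all far higher at day 5. NKX2-5, a homeobox factor of the heart fields, was at 48.7, 35.5 and 161 CPM at day 5 against 0.238, 0.328 and 0.648 CPM at day 3 (log2 difference 7.83, SE 0.8, adjusted p = 2.52e-05). TBX5, the T-box factor of the first heart field and the atria, was at 54.1, 70.4 and 70.4 CPM at day 5 against 0.572, 0.164 and 0 CPM at day 3 (log2 difference 7.79, SE 0.73, adjusted p = 1.2e-05). TNNT2, cardiac troponin T, was at 479, 437 and 595 CPM at day 5 against 1.05, 1.23 and 1.84 CPM at day 3 (log2 difference 8.61, SE 0.58, adjusted p = 1.14e-06). No library of one day overlapped the other day in any of the 3 genes, and each call held when any of the 6 libraries was left out. The 3 day 5 libraries stood close together for TBX5 and TNNT2, but for NKX2-5 replicate 3 stood several-fold above replicates 1 and 2. In bulk RNA like this, fewer cells of a type and less RNA per cell cannot be told apart. The day 5 level of MESP1, which marks cardiac mesoderm, was 3.62, 1.1 and 3.46 CPM against 28.5, 53.2 and 103 CPM at day 3 (log2 difference -4.47, SE 0.63, adjusted p = 0.000293).

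**Figure D1:**
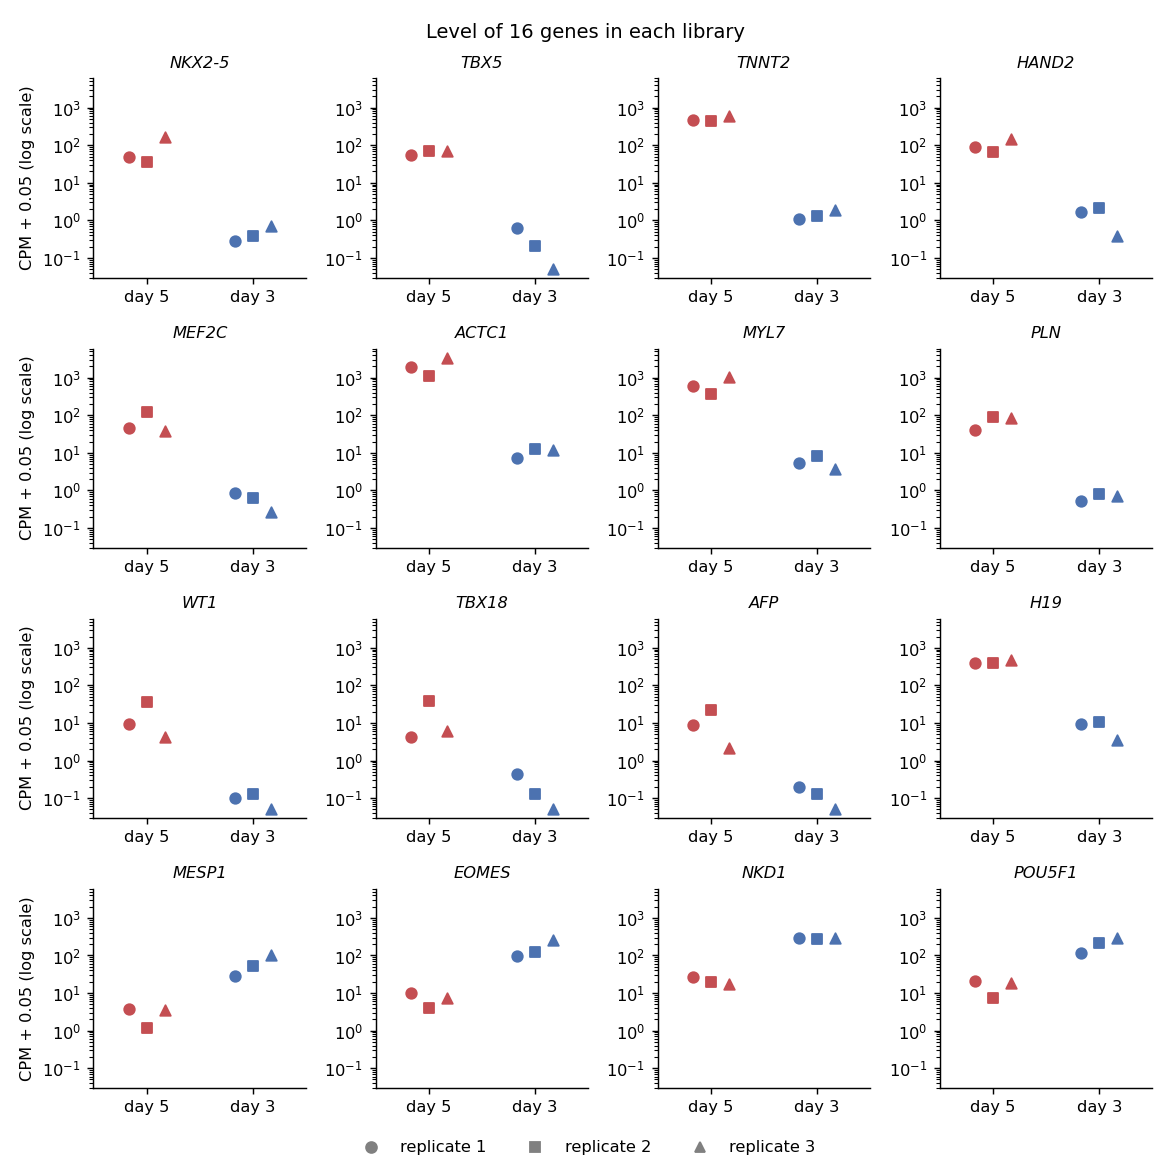
Level of 16 genes in each of the 6 libraries, in CPM on a log scale after adding 0.05, with day 5 at the left and day 3 at the right of each panel and 1 point per library. The panels of NKX2-5, TBX5, TNNT2, HAND2, MEF2C, ACTC1, MYL7, PLN, WT1, TBX18, AFP and H19 are higher at day 5, and those of MESP1, EOMES, NKD1 and POU5F1 lower; the 2 days do not overlap in any panel, while day 5 replicate 2 stands apart in several.

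The day 5 libraries differed in depth and in composition. Their totals were 8015159, 13679686 and 4330334 counts, against 20975832, 12210450 and 9252641 counts at day 3. Across genes, the Pearson correlation of log2(CPM + 0.5) was 0.857 between day 5 replicates 2 and 3, 0.937 between 1 and 2 and 0.95 between 1 and 3, against 0.957 to 0.984 between the day 3 libraries; day 5 replicate 2 correlated at 0.925 with day 3 replicate 1. The median gene had a standard deviation of 0.615 on the log2 scale between the day 5 libraries and 0.344 between the day 3 libraries, and 86.3% of the 16763 genes tested spread more at day 5. After all 6 libraries were thinned to the smallest total, the medians were 0.632 at day 5 and 0.377 at day 3. The difference between day 5 replicates 2 and 3 correlated, across 12095 genes, with the difference between day 3 replicate 1 and the mean of its 2 partners (r = 0.887). Both differences correlated with the GC content of the gene's longest annotated transcript (r = -0.823 and -0.8 over 12057 genes, which are not independent replicates). Genes below 38.28% GC and above 61.34% GC, the lowest and highest 10% of genes, were compared relative to the mean of each library's own day. The lowest exceeded the highest by -0.33, 1.6 and -1.28 on the log2 scale in the day 5 libraries. In the day 3 libraries they did so by 0.92, -0.45 and -0.48. These values compare libraries within a day and not between days. On TMM-scaled log2 CPM of 16636 genes, a measure unlike the one above, the median standard deviation was 0.668 at day 5 and 0.358 at day 3. Removing each library's trends on GC content and exon length brought these to 0.324 at day 5 and 0.211 at day 3. The part of this axis in each result below was not tested, except where a result is given with those trends removed or without a library.

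Of 57477 genes, 16763 had enough counts to be tested with edgeR's quasi-likelihood test. At an adjusted p under 0.05, 846 genes were higher at day 5 and 556 lower, which is 5.05% and 3.32% of the genes tested, or 8.36% in all; the median log2 difference over all genes was 0.002. Protein-coding genes made up 741 of the rises and 431 of the falls, and long non-coding RNAs 81 and 92. The smallest difference that this fit called was 1.36 on the log2 scale; with library weights in limma voom, smaller differences were called as well. Groups that did not overlap were more frequent than calls: every day 5 library was above every day 3 library for 1628 genes (9.71%) and below for 1692 genes (10.1%).

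Many calls ended when a single library was left out. Of the 1402 calls, 689 (49.1%) kept their direction and threshold without each of the 6 libraries, 444 higher (2.65% of genes tested) and 245 lower (1.46%), and 787 (56.1%) did so without each day 5 library. Of the day 5 libraries, replicate 1, whose composition lay between those of its partners, ended most calls when left out. Without it 527 of the 846 rises and 274 of the 556 falls remained, of 553 and 297 calls in that fit (3.05% and 1.64% of the genes it tested). That fit kept replicates 2 and 3, which correlated least among the day 5 libraries (r = 0.857), and 0 calls changed direction in it. How far the lost calls reflect the spread of replicates 2 and 3 was not tested. Without replicate 2 there were 1849 rises and 1863 falls (10.9% and 11% of 16952 genes tested), with 825 and 528 of the calls above among them, so that 49.8% of calls were rises, against 60.3% with all libraries. Without replicate 3, the shallowest library, there were 1008 rises and 694 falls (5.57% and 3.83%). Calls also ended without day 3 libraries: without day 3 replicate 3, 500 of the 846 rises and 323 of the 556 falls remained. Removing the GC and length trends gave 1572 rises and 1385 falls (9.45% and 8.33% of 16636 genes) and kept 826 and 534 of the calls. Below, "held" means that a call remained without each of the 6 libraries. The gene lists below were chosen with earlier results of these data known, and some genes stand in several lists. Their shares beside those of all genes are therefore descriptions only.

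**Figure D2:**
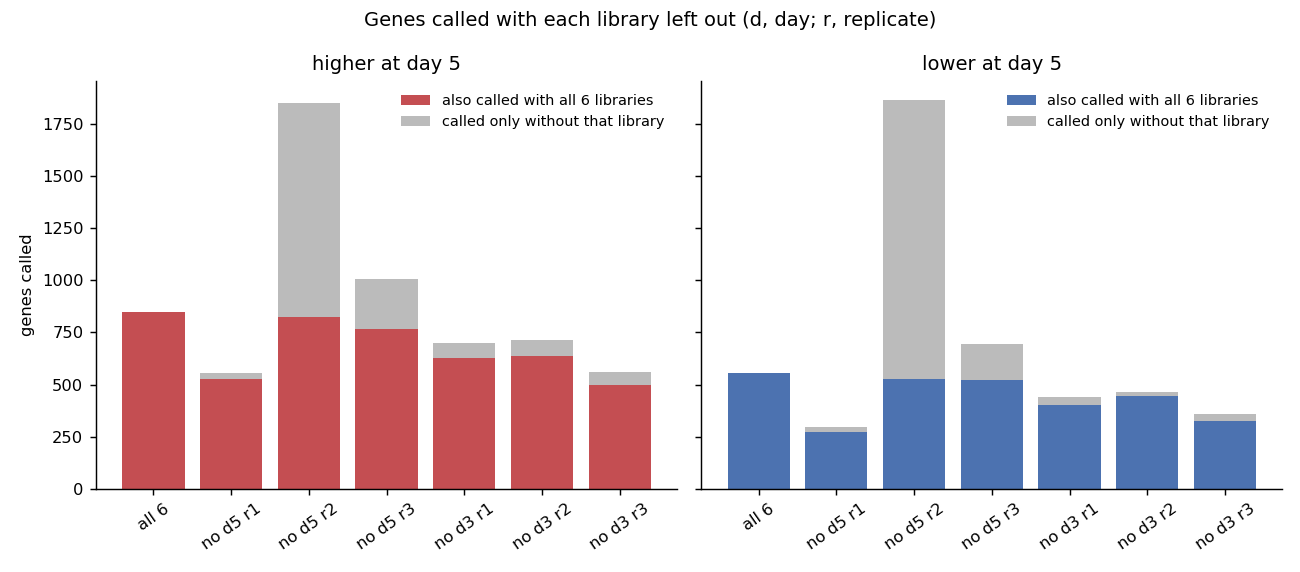
Genes called higher (left panel) and lower (right panel) at day 5 with all 6 libraries and with each library left out, in numbers of genes. The coloured part of a bar was also called with all 6 libraries and the grey part only without that library; the bars run from 553 rises and 297 falls without day 5 replicate 1 to 1849 and 1863 without day 5 replicate 2.

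**Figure D3:**
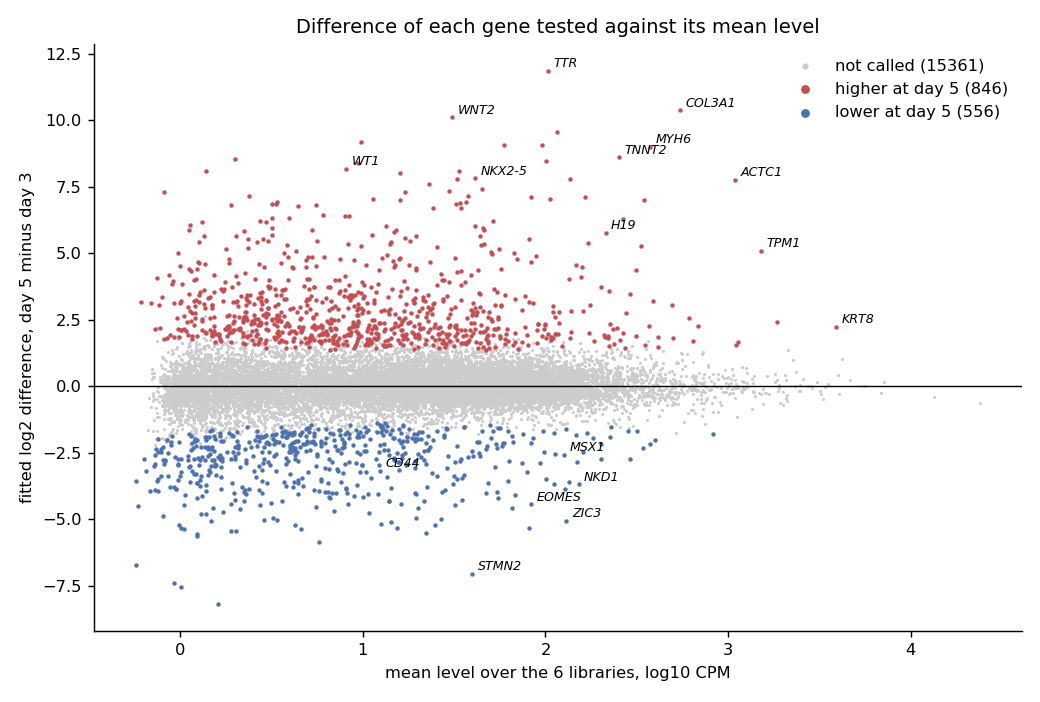
Log2 difference, day 5 minus day 3, against the log10 of the mean CPM over the 6 libraries, 1 point per gene tested, with genes called higher and lower in colour. The 846 rises and 556 falls all lie at or beyond 1.36 on the log2 scale, in either direction.

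Many transcription factors of the heart rose: 12 of 25 tested members of a list of 27 passed as higher and 2 as lower, with a median log2 difference of 1.61 (5.05% and 3.32% over all genes). HAND2, a basic helix-loop-helix factor of the right ventricle and outflow tract, was at 89.2, 64.8 and 149.9 CPM at day 5 against 1.67, 2.13 and 0.324 CPM at day 3 (log2 difference 6.23, SE 0.68, adjusted p = 4.18e-05). MEF2C, which activates muscle genes in the second heart field, was at 45.9, 119.9 and 37.2 CPM at day 5 against 0.81, 0.573 and 0.216 CPM at day 3 (log2 difference 6.9, SE 0.68, adjusted p = 1.7e-05). In both genes the groups lay far apart, with the highest library being replicate 3 for HAND2 and replicate 2 for MEF2C. TBX20, a T-box factor of the chambers, was at 26.4, 61.6 and 27.9 CPM at day 5 against 4.67, 4.5 and 3.57 CPM at day 3 (log2 difference 3.23). MYOCD, the coactivator of serum response factor, was at 102, 224 and 76.4 CPM at day 5 against 7.77, 6.39 and 0.432 CPM at day 3 (log2 difference 4.79). The rises of TBX2, a repressor in non-chamber myocardium (3.92), and of ZFPM2, a GATA4 partner (3.82), also held. GATA4 and GATA5, zinc finger factors of the early heart, were present on both days. GATA4 was at 284, 211 and 528 CPM at day 5 against 74.2, 109 and 109 CPM at day 3 (log2 difference 1.9, SE 0.48, adjusted p = 0.0188), and the call ended without day 5 replicate 1 (adjusted p = 0.0722), day 3 replicate 1 (0.0711) or day 3 replicate 3 (0.0927). GATA5 rose by 2.21 on the log2 scale, and the call ended without day 3 replicate 3 (adjusted p = 0.0643). The 2 falls were the Iroquois factors IRX1 (-1.99) and IRX2 (-1.89): for IRX1, the call ended without day 5 replicate 1 (adjusted p = 0.195) or day 3 replicate 3 (0.131); for IRX2, the call ended without day 5 replicate 1 (adjusted p = 0.0536). ISL1, the factor of the second heart field, did not pass, with 53.1, 40.8 and 24 CPM at day 5 against 38.2, 26.9 and 21.1 CPM at day 3 (log2 difference 0.49, SE 0.44, adjusted p = 0.704), nor did HAND1, an early heart factor (log2 difference -0.58, SE 0.41, adjusted p = 0.6). IRX4, a factor of the ventricle, had 1 count in all at day 5 and 7 at day 3, too few to be tested.

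Genes of the second heart field and pharyngeal mesoderm were split. Of 15 tested members of 18, 8 rose and 3 fell (median 2.14), beside 5.05% and 3.32% over all genes, and 6 rises and 0 falls held. NR2F1 and NR2F2, orphan nuclear receptors of the atria, had log2 differences of 3.77 and 2.94. NR2F2 was at 7.24, 8.92 and 5.77 CPM at day 5 against 1.24, 0.983 and 0.648 CPM at day 3, with no overlap. FGF10, a growth factor made by the second heart field, was at 13.7, 29.97 and 12 CPM at day 5 against 4.91, 2.78 and 0.324 CPM at day 3 (log2 difference 2.79, SE 0.66, adjusted p = 0.0134), and the call ended without day 5 replicate 1 (adjusted p = 0.0537). The falls included EYA1, a transcriptional coactivator, and the forkhead factor FOXC1. For FOXC1 (-1.7), the call ended without day 5 replicate 1 (adjusted p = 0.146) or day 3 replicate 3 (0.273).

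Genes of the HOXB cluster, which set position along the body axis and are used in the posterior part of the heart fields, were higher at day 5. Of 9 HOX genes tested of 32 listed, 7 rose and 0 fell (median 2.09), beside 5.05% and 3.32% over all genes. All 7 that rose are HOXB genes. HOXB1 was at 72.9, 58 and 78.1 CPM at day 5 against 10.5, 14.8 and 5.94 CPM at day 3 (log2 difference 2.8, SE 0.47, adjusted p = 0.00111). HOXB5 was at 2.87, 5.04 and 3.23 CPM at day 5 against 0.62, 0.655 and 0 CPM at day 3 (log2 difference 3.04, SE 0.62, adjusted p = 0.0049). The groups did not overlap in either gene. The rises of HOXB1, HOXB4 (2.97), HOXB5 and HOXB6 (2.62) held, while those of HOXB2, HOXB7 and HOXB9 did not: for HOXB2, the call ended without day 5 replicate 1 (adjusted p = 0.0564) or day 3 replicate 3 (0.124); for HOXB9, the call ended without day 5 replicate 1 (adjusted p = 0.0648), day 3 replicate 2 (0.0657) or day 3 replicate 3 (0.132); and for HOXB7, the adjusted p was 0.0506 to 0.186 without each library except day 3 replicate 2. Genes of this cluster overlap antisense transcripts and the strand setting of the counting is not given in the sources used here, so their counts may hold reads of both strands.

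Contractile genes rose in each of 4 lists. Of the thick filament and M band list 7 of 11 tested members passed as higher, of the thin filament list 8 of 15, of the Z disc and costamere list 9 of 19, and of the assembly and chaperone list 7 of 14. Their median log2 differences were 3.03, 3.16, 1.77 and 1.9, against 0.002 over all genes, of which 5.05% passed as higher. In thick filaments, MYL7, the atrial regulatory light chain, was at 618, 374 and 1073 CPM at day 5 against 5.29, 8.11 and 3.67 CPM at day 3 (log2 difference 7, SE 0.63, adjusted p = 8.25e-06). TTN, the giant spring protein of the sarcomere, was at 70.6, 191 and 67.2 CPM at day 5 against 14.8, 8.76 and 7.24 CPM at day 3 (log2 difference 3.45, SE 0.54, adjusted p = 0.000667). MYL7 was lowest in replicate 2 and TTN highest in it. MYBPC3, cardiac myosin binding protein C, had 2 counts in all at day 3 and was at 2.62, 7.31 and 10.4 CPM at day 5 (adjusted p = 6.49e-05). MYL2, the ventricular light chain, had 0 counts in all 6 libraries.

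In thin filaments, ACTC1, the cardiac alpha-actin, was at 1962, 1120.05 and 3431 CPM at day 5 against 7.44, 12.9 and 11.6 CPM at day 3 (log2 difference 7.77, SE 0.62, adjusted p = 3.35e-06). ACTA1, the skeletal alpha-actin that fetal heart also uses, was at 9.36, 6.8 and 17.8 CPM at day 5 against 0.477, 1.47 and 1.73 CPM at day 3 (log2 difference 3.33). TNNI1, slow troponin I, was at 390.01, 303 and 885 CPM at day 5 against 8.15, 9.91 and 3.35 CPM at day 3 (log2 difference 6.29). Day 5 replicate 3 was the highest library for ACTC1, and all 3 genes stood apart from day 3 in every library. TNNI3, the adult cardiac troponin I, did not pass, at 9.48, 3.51 and 12.7 CPM at day 5 against 8.92, 11.5 and 13.3 CPM at day 3 (log2 difference -0.34, SE 0.49, adjusted p = 0.829). The actins resemble one another closely, as do MYH6 and MYH7, and reads trimmed to 50 bases may be shared between such copies. Among Z disc genes, LDB3, which anchors alpha-actinin, was at 19.6, 19.4 and 27.2 CPM at day 5 against 0.572, 0.246 and 0.432 CPM at day 3 (log2 difference 5.7, SE 0.54, adjusted p = 1.23e-05). ACTN2, the alpha-actinin of the Z disc, was at 29.8, 35.2 and 20.6 CPM at day 5 against 0.81, 0.819 and 2.27 CPM at day 3 (log2 difference 4.56, SE 0.54, adjusted p = 6.92e-05). Neither gene overlapped between days. The rises of CSRP3, a muscle LIM protein (4.68), of SYNPO2L (4.69) and of ANKRD1, a stretch-responsive repressor (4.12), held, and for NEXN, an actin-binding protein (2.16), the call ended without day 3 replicate 3 (adjusted p = 0.116). Of the assembly genes, HSPB7, a small heat shock protein of heart, was at 14.8, 9.28 and 25.4 CPM at day 5 against 1.33, 2.05 and 3.46 CPM at day 3 (log2 difference 2.96). RBM24, a splicing factor of muscle, was at 62.3, 96.8 and 44.1 CPM at day 5 against 16.4, 12.4 and 11.5 CPM at day 3 (log2 difference 2.38). The fall in that list was RBFOX1, another splicing factor (-1.98): the call ended without day 5 replicate 1 (adjusted p = 0.0788), day 3 replicate 1 (0.0715) or day 3 replicate 3 (0.0688). Without day 5 replicates 1, 2 and 3, the thick filament rises numbered 7, 7 and 7 and the thin filament rises 8, 10 and 8. Those of the Z disc numbered 9, 12 and 11 and those of assembly 7, 8 and 8.

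Promoters of the 4 genes below are shown because they are contractile genes that rose and hold a CArG box, the binding sequence of serum response factor, within 250 bases before the start. Each line gives 150 bases that end at the base before the RefSeq start in GRCh38.p14, read 5′ to 3′ along the gene's strand, with the CArG box in capitals.
ACTC1 (chr15:34795550-34795699, minus strand): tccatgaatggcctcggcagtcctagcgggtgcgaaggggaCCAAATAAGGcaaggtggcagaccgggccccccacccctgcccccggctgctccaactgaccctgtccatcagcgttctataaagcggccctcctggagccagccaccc
ACTA1 (chr1:229434095-229434244, minus strand): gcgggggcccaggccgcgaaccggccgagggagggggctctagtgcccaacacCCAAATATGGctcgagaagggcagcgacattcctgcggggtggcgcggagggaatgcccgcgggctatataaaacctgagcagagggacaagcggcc
MYL7 (chr7:44141333-44141482, minus strand): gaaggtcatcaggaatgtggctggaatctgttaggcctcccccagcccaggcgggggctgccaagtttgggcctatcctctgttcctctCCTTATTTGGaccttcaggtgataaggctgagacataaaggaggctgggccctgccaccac
LDB3 (chr10:86668361-86668510, plus strand): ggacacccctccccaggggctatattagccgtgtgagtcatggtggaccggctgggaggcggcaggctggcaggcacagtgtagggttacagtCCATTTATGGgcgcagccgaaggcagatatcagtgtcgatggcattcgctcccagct

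The CArG boxes began 109, 97, 61 and 57 bases before the start of ACTC1, ACTA1, MYL7 and LDB3. Of 36 contractile and smooth muscle genes that rose, 26 matched a RefSeq promoter and 4 of these (15.38%) held the box on either strand, against 312 of all 27305 promoters (1.14%). The letters AGATAA, a core of GATA factor sites, were in 5 of the 26 (19.23%), in ANKRD1, LMOD2, MYBPC3, TNNT2 and XIRP1, against 9.37% of all promoters. TATAAA, the core of the TATA box, was in 5 of the 26 (19.23%), against 11.13% of all. Neither was particular to genes that rose: of 12 promoters of Wnt target and streak genes that fell, 16.67% held AGATAA and 25% TATAAA. Of 5 promoters of cardiac transcription factors that rose, 1 held AGATAA and 0 held TATAAA or a CArG box. Each motif was searched on both strands, and a CArG box can itself contain TATAAA. Such matches describe the letters of these windows and are not binding sites.

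Genes for calcium cycling were mixed. Of 16 tested members 8 rose and 1 fell (median 0.85), beside 5.05% and 3.32% over all genes, and 7 rises and the fall held. PLN, phospholamban, the inhibitor of the calcium pump, was at 41.8, 91.2 and 85.7 CPM at day 5 against 0.477, 0.737 and 0.648 CPM at day 3 (log2 difference 6.95, SE 0.59, adjusted p = 6.71e-06). RYR2, the calcium release channel of the sarcoplasmic reticulum, was at 67.9, 208 and 52.9 CPM at day 5 against 5.24, 4.67 and 5.84 CPM at day 3 (log2 difference 4.42, SE 0.58, adjusted p = 0.000146). SLC8A1, the sodium-calcium exchanger, was at 76.2, 172 and 77.1 CPM at day 5 against 1.95, 3.11 and 4.32 CPM at day 3 (log2 difference 5.18, SE 0.56, adjusted p = 3.71e-05). None of the 3 overlapped between days, and RYR2 and SLC8A1 were highest in replicate 2. JPH2, which holds the membranes of the release unit together (4.9), and the L-type channel subunits CACNA1C (2.21) and CACNA1D (3.4) also rose. TRDN, triadin, which anchors calsequestrin, went the other way, at 1.75, 6.8 and 2.77 CPM at day 5 against 24.9, 19 and 28.6 CPM at day 3 (log2 difference -2.58, SE 0.51, adjusted p = 0.00388). ATP2A2, the pump itself, did not pass, at 422, 369 and 169 CPM at day 5 against 302, 262 and 317 CPM at day 3 (log2 difference 0.16, SE 0.43, adjusted p = 0.9).

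Of 16 tested sodium, potassium and pacemaker channels, 3 rose and 3 fell, beside 5.05% and 3.32% over all genes. HCN4, the main pacemaker channel of the heart, was at 32.8, 20.2 and 59.8 CPM at day 5 against 6.25, 8.68 and 4.86 CPM at day 3 (log2 difference 2.59, SE 0.51, adjusted p = 0.00355). This call held, as did the rise of KCNJ3, an atrial potassium channel (6.04). Of the hormone list, 4 of 6 tested members rose. NPPA, atrial natriuretic peptide, was at 3.37, 2.85 and 6.47 CPM at day 5 against 0.143, 0.573 and 0.865 CPM at day 3 (log2 difference 3.16, SE 0.62, adjusted p = 0.00354). CORIN, the protease that activates it, was at 18.2, 31.4 and 9.93 CPM at day 5 against 0.953, 0.573 and 1.08 CPM at day 3 (log2 difference 4.55, SE 0.55, adjusted p = 7.74e-05). Neither overlapped between days, and replicate 2 was the lowest day 5 library for NPPA.

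**Figure D4:**
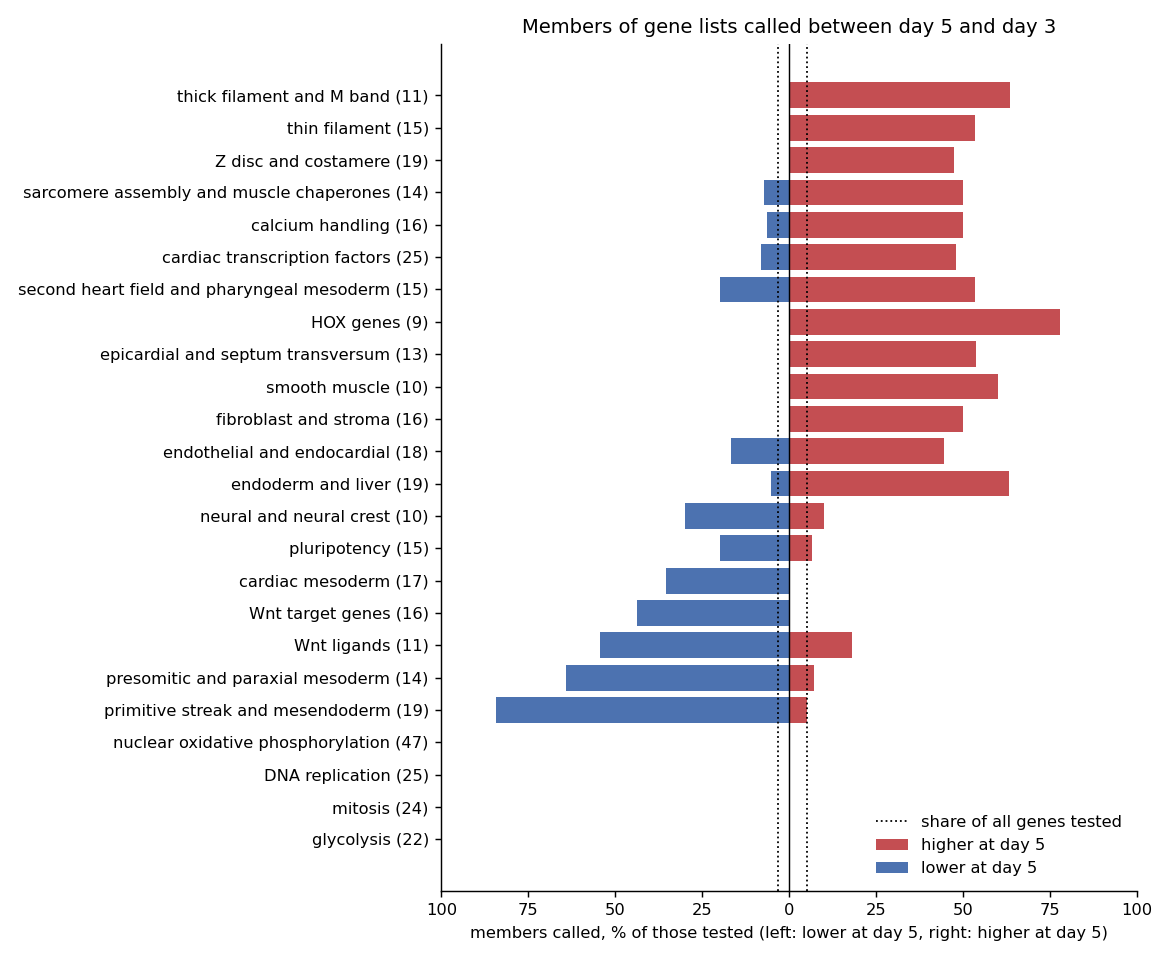
Share of the tested members of 24 gene lists called higher (right) and lower (left) at day 5, in percent, with dotted lines at the share of all genes tested, 5.05% higher and 3.32% lower. The lists were chosen with earlier results of these data known. The HOX list reaches furthest to the right (7 of 9 members) and the primitive streak list furthest to the left (16 of 19); the lists of oxidative phosphorylation, DNA replication, mitosis and glycolysis have no call in this fit.

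Genes of the epicardium, smooth muscle and stroma were also higher at day 5. The summed level of all 16 epicardial genes listed, most of it keratins, was 10703, 6590.1 and 16923 CPM at day 5 against 2514, 4035 and 3889.8 CPM at day 3. Of the epicardial and septum transversum list 7 of 13 tested members rose (median 2.25), 5 of them holding, and none fell, beside 5.05% and 3.32% over all genes. WT1, the Wilms tumour factor of the epicardium, had 2 counts in all at day 3 and was at 9.36, 35.1 and 4.16 CPM at day 5 (adjusted p = 6.92e-05). TBX18, a T-box factor of the epicardium and venous pole, was at 4.24, 39.3 and 6.24 CPM at day 5 against 0.381, 0.0819 and 0 CPM at day 3 (log2 difference 6.39, SE 0.96, adjusted p = 0.000478). TCF21, a factor of the proepicardium, was at 4.12, 4.39 and 4.85 CPM at day 5 against 0.62, 0.491 and 0 CPM at day 3 (log2 difference 3.44, SE 0.61, adjusted p = 0.00167). WT1 and TBX18 were highest in day 5 replicate 2, well above its partners, and TCF21 was alike in the 3 libraries; every day 5 library was above every day 3 library in these genes. KRT8 and KRT18, keratins of simple epithelia, rose by 2.25 and 2.41. UPK3B, a marker of mesothelium, had 6 counts in all at day 5 and 5 at day 3.

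Of the smooth muscle list, 6 of 10 tested members rose (median 2.59), 5 of them holding, beside rises of 5.05% over all genes. TAGLN, an actin-binding protein of smooth muscle and early heart, was at 237, 152 and 368 CPM at day 5 against 11.2, 21 and 16.5 CPM at day 3 (log2 difference 4.05, SE 0.53, adjusted p = 0.000144). ACTA2, smooth muscle actin, was at 115, 85.2 and 94.5 CPM at day 5 against 2.96, 4.83 and 1.95 CPM at day 3 (log2 difference 4.97, SE 0.52, adjusted p = 2.87e-05). LMOD1, a leiomodin of smooth muscle, rose by 6.71. Early cardiomyocytes also use TAGLN, ACTA2 and CNN1, so that these genes do not separate the cell types. Of the fibroblast and stroma list 8 of 16 rose (median 1.06), 5 of them holding. COL1A1, a chain of type I collagen, was at 564, 348 and 871 CPM at day 5 against 24.8, 45.8 and 20.4 CPM at day 3 (log2 difference 4.38, SE 0.55, adjusted p = 0.000108). COL6A3, a chain of type VI collagen, was at 80.8, 97.4 and 27.7 CPM at day 5 against 11.1, 10.6 and 7.03 CPM at day 3 (log2 difference 2.87, SE 0.51, adjusted p = 0.00162). For COL1A2, the other type I chain (1.69), the call ended without day 5 replicate 1 (adjusted p = 0.111), day 3 replicate 1 (0.0738) or day 3 replicate 2 (0.0693). DPT, a matrix protein of mature fibroblasts, had 0 counts in all 6 libraries.

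Endothelial and endocardial genes moved in both directions, with 8 of 18 tested members higher, 5 of them holding, and 3 lower, of which 1 held. Over all genes, 5.05% were called higher and 3.32% lower. TEK, the angiopoietin receptor, was at 27.2, 72 and 9.01 CPM at day 5 against 3.29, 3.03 and 2.7 CPM at day 3 (log2 difference 3.61, SE 0.62, adjusted p = 0.00134). TAL1, a factor of blood and endothelium, was at 17.6, 4.53 and 9.01 CPM at day 5 against 0.0953, 0.246 and 0.216 CPM at day 3 (log2 difference 5.88, SE 0.68, adjusted p = 6.49e-05). CD34, a surface marker of vessel and blood progenitors, was at 6.36, 3.14 and 1.15 CPM at day 5 against 0.191, 0.0819 and 0.108 CPM at day 3 (log2 difference 4.65, SE 0.69, adjusted p = 0.0004). The 3 genes did not overlap between days. PECAM1, a junction protein of endothelium, did not pass, at 1.12, 1.54 and 0 CPM at day 5 against 2.1, 1.15 and 1.41 CPM at day 3 (log2 difference -0.59, SE 0.6, adjusted p = 0.747). SOX17, a factor of endoderm and of arterial endothelium, was the fall that held, and EMCN, a marker of veins and endocardium, had 6 counts in all at day 5 and 5 at day 3. Of the blood list, GATA2, which works in blood stem cells, rose (4.01), and RUNX1, which starts definitive blood formation, fell (-2.8). PTPRC, the leukocyte marker CD45, had 3 counts in all at day 5 and 86 at day 3, and 70 of these 86 were in day 3 replicate 1.

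Genes of endoderm and liver rose in a larger share than most lists: 12 of 19 tested members passed as higher and 1 as lower (median 3.13), with 9 and 1 holding. The shares over all genes were 5.05% and 3.32%. APOA1 and APOA2, apolipoproteins of liver, gut and yolk sac, were among them. APOA1 was at 112, 35.4 and 74.6 CPM at day 5 against 3.58, 5.41 and 3.57 CPM at day 3 (log2 difference 4.2, SE 0.54, adjusted p = 0.000127). APOA2 was at 44.5, 24.3 and 15.9 CPM at day 5 against 1.19, 0.901 and 1.19 CPM at day 3 (log2 difference 4.71, SE 0.52, adjusted p = 4.73e-05). AFP, alpha-fetoprotein, was at 8.73, 22.4 and 2.08 CPM at day 5 against 0.143, 0.0819 and 0 CPM at day 3 (log2 difference 6.82, SE 0.9, adjusted p = 0.000155). The days did not overlap in these genes, but the order of the day 5 libraries differed: APOA1 was lowest in replicate 2, APOA2 in replicate 3, and AFP was highest in replicate 2. HNF4A, a nuclear receptor of the liver and gut, was at 48.2, 15.2 and 38.6 CPM at day 5 against 3.34, 4.18 and 3.67 CPM at day 3 (log2 difference 3.25, SE 0.51, adjusted p = 0.000613). SERPINA1, alpha-1-antitrypsin, rose by 4.8, and APOB, the carrier of lipoprotein particles, by 4.8. For FOXA1, a pioneer factor of endoderm (2.15), the call ended without day 5 replicate 1 (adjusted p = 0.055). FOXA2 and SOX17, the factors of definitive endoderm, were at 65.4, 19.7 and 90.5 and 8.86, 3.29 and 9.93 CPM at day 5 against 44.1, 66.9 and 75.7 and 83.1, 121 and 184 CPM at day 3; only SOX17 passed, as lower (log2 difference -4.08, SE 0.56, adjusted p = 0.000231). ALB, albumin, had 19 counts in all at day 5 and 4 at day 3, too few to be tested. The summed level of the 23 genes listed was 2604, 1278 and 2936 CPM at day 5 against 1158, 1615 and 2041 CPM at day 3. The part of such cells in the other results was not tested.

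Neural genes were called in both directions and no skeletal muscle gene passed in the edgeR fit, beside 5.05% called higher and 3.32% lower over all genes. Of 10 tested neural and neural crest genes, 1 rose, GAP43, a growth cone protein (5.24), and 3 fell, the homeobox factor OTX2 (-1.93) and the genes STMN2 (-7.04), a neuronal regulator of microtubules, and NTS (-5.33), the peptide neurotensin. For OTX2, the call ended without day 5 replicate 1 (adjusted p = 0.0994) or day 3 replicate 3 (0.193). STMN2 was at 0.499, 0.439 and 0.924 CPM at day 5 against 102, 48.3 and 86.4 CPM at day 3. Of 3 skeletal muscle genes tested of 12, 0 rose and 0 fell by edgeR, with 0 at an unadjusted p under 0.05 and 0 called by DESeq2, while limma voom with library weights called 1 higher and 1 lower and the fit with GC and length trends removed 1 lower. The defining factors SOX10 and NEUROD1 had 0 counts in all 6 libraries, MYOD1 had 1 count at day 5 and 3 at day 3, and MYOG 3 and 4.

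Genes of the primitive streak fell in a larger share than those of any other of the 52 lists, beside 3.32% over all genes. As the lists were chosen with earlier results of these data known, this order partly reflects that choice. Of 19 tested members 16 fell and 1 rose (median -3.5), and 13 falls held. MIXL1, a homeobox factor of the streak, was at 4.24, 3.07 and 8.08 CPM at day 5 against 87.2, 108 and 184 CPM at day 3 (log2 difference -4.57, SE 0.56, adjusted p = 9.75e-05). EOMES, the T-box factor that starts mesoderm and endoderm formation, was at 10.1, 3.95 and 7.16 CPM at day 5 against 93.9, 122 and 264 CPM at day 3 (log2 difference -4.44, SE 0.58, adjusted p = 0.000143). TBXT, brachyury, was at 1.75, 1.1 and 2.77 CPM at day 5 against 9.2, 14.4 and 28.5 CPM at day 3 (log2 difference -3.21, SE 0.56, adjusted p = 0.00143). In all 3 genes every day 5 library was below every day 3 library. LHX1 (-3.64), CER1, a secreted antagonist of Nodal, BMP and Wnt (-4.14), and EVX1 (-2.83) also fell. For GSC, goosecoid (-2.6), the call ended without day 5 replicate 1 (adjusted p = 0.125) or day 3 replicate 3 (0.0688). NODAL, the ligand that these genes respond to in the streak, rose: it was at 16.3, 15.8 and 19.9 CPM at day 5 against 3.81, 4.75 and 3.35 CPM at day 3 (log2 difference 2.18, SE 0.42, adjusted p = 0.00285).

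Mesoderm genes fell in smaller shares, beside falls of 3.32% and rises of 5.05% over all genes. Of 17 tested cardiac mesoderm genes 6 fell and 0 rose (median -1.21), and 3 falls held, those of MESP1, its relative MESP2 (-4.98) and MSX1, a homeobox target of BMP signalling (-2.58). KDR, the VEGF receptor that marks early mesoderm, did not pass, at 356, 347 and 57.7 CPM at day 5 against 220.2, 149 and 195 CPM at day 3 (log2 difference 0.46, SE 0.55, adjusted p = 0.792), nor did PDGFRA, a growth factor receptor of mesoderm, at 397, 854 and 245 CPM at day 5 against 455, 228 and 175 CPM at day 3 (log2 difference 0.83, SE 0.51, adjusted p = 0.514). Both KDR and PDGFRA mark progenitors as well. For LGR5, a receptor that boosts Wnt signals (-2.42), the call ended without day 5 replicate 1 (adjusted p = 0.115) or day 3 replicate 1 (0.0946). Of 14 tested presomitic and paraxial genes 9 fell and 1 rose (median -2.68), with 4 falls holding. TBX6, the T-box factor of presomitic mesoderm, was at 3.12, 1.17 and 5.31 CPM at day 5 against 30.9, 56.2 and 66.7 CPM at day 3 (log2 difference -3.99, SE 0.6, adjusted p = 0.00045). MSGN1, a factor of the same tissue, had 3 counts in all at day 5 and was at 1.91, 2.87 and 4.11 CPM at day 3 (adjusted p = 0.000925). For DLL3, a Notch ligand (-3.2), the call ended without day 5 replicate 1 (adjusted p = 0.0504). The rise was UNCX, a somite homeobox gene (3.47).

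Of 15 tested pluripotency genes 3 fell and 1 rose (median -0.99), beside 3.32% and 5.05% over all genes. POU5F1, OCT4, was at 21.2, 7.16 and 18.5 CPM at day 5 against 116, 215 and 289 CPM at day 3 (log2 difference -3.66, SE 0.56, adjusted p = 0.000502). TDGF1, the Nodal coreceptor, fell by 3.57 on the log2 scale. The 3 falls held. NANOG did not pass, at 0.624, 0.585 and 0.924 CPM at day 5 against 1.43, 1.15 and 3.67 CPM at day 3 (log2 difference -1.52, SE 0.58, adjusted p = 0.156), and SOX2 was at 4.24, 1.1 and 0.924 CPM at day 5 against 2.19, 2.13 and 1.19 CPM at day 3 (log2 difference 0.22, SE 0.56, adjusted p = 0.897). The rise was GDF3, a TGF-beta family ligand (2.77), for which the call ended without day 5 replicate 1 (adjusted p = 0.0656), day 5 replicate 3 (0.0992) or day 3 replicate 1 (0.109).

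Most of the Wnt ligands that passed were lower at day 5, and receptors were called in both directions. Of 11 ligands tested 6 fell and 2 rose (median -2.26), beside 3.32% and 5.05% over all genes. WNT3, which starts the streak, was at 20.5, 14 and 13.4 CPM at day 5 against 75.1, 78.3 and 84.6 CPM at day 3 (log2 difference -2.26, SE 0.42, adjusted p = 0.00235). WNT3A, which maintains posterior mesoderm, was at 0.25, 0.146 and 0.231 CPM at day 5 against 2.77, 7.62 and 16.4 CPM at day 3 (log2 difference -5.37, SE 0.78, adjusted p = 0.00035). WNT3 was alike in the libraries of each day, whereas WNT3A was near 0 at day 5 and uneven at day 3. The falls of WNT3, WNT3A, WNT4 (-4.04), WNT8A (-5.53) and WNT9B (-4.31) held. WNT2, a ligand of early heart and lung, had 2 counts in all at day 3 and was at 39.3, 52.3 and 92.8 CPM at day 5 (adjusted p = 3.35e-06). For WNT11, a ligand of the branch without beta-catenin that promotes the cardiac fate in frog and chick (1.81), the call ended without day 5 replicate 1 (adjusted p = 0.131), day 3 replicate 1 (0.143) or day 3 replicate 3 (0.107). Of 20 receptors and coreceptors, 5 rose and 2 fell. FZD8 rose (2.53), FZD10 fell (-3.02), and RSPO2, an enhancer of Wnt signals, had 3 counts in all at day 3 and was at 8.48, 12.9 and 4.85 CPM at day 5 (adjusted p = 4.18e-05).

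Of 16 target genes of the pathway 7 fell and 0 rose (median -1.16), with 6 falls holding, beside 3.32% lower and 5.05% higher over all genes. These lists share genes: SP5, TBXT and CDX1 were also counted among the streak falls, as were the ligands WNT3 and WNT8A. NOTUM is counted among both the target and the antagonist falls. AXIN2, a feedback inhibitor that reads out beta-catenin activity, was at 15, 13 and 9.7 CPM at day 5 against 68.1, 71.7 and 80.5 CPM at day 3 (log2 difference -2.49, SE 0.42, adjusted p = 0.00115). NKD1, another feedback inhibitor, was at 26.7, 19.9 and 17.1 CPM at day 5 against 289, 274 and 284 CPM at day 3 (log2 difference -3.68, SE 0.45, adjusted p = 8.71e-05). SP5, a zinc finger factor switched on by beta-catenin, was at 18.8, 6.73 and 21 CPM at day 5 against 119.9, 189 and 245 CPM at day 3 (log2 difference -3.5, SE 0.55, adjusted p = 0.000634). The days did not overlap in any of the 3. LEF1, a DNA-binding partner of beta-catenin and a target itself, did not pass, at 78, 80.7 and 40.6 CPM at day 5 against 229.98, 171 and 139 CPM at day 3 (log2 difference -1.4, SE 0.44, adjusted p = 0.0687). Of 15 antagonists 5 fell and 2 rose. DKK1, a secreted antagonist that is also a target, was at 14.8, 15 and 17.3 CPM at day 5 against 193, 211 and 319 CPM at day 3 (log2 difference -3.87, SE 0.47, adjusted p = 8.01e-05). DACT1, an intracellular antagonist, fell (-2.15) and its relative DACT3 rose (2.54). Without day 5 replicates 1, 2 and 3, the target falls numbered 6, 8 and 8.

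The promoters of SP5 and MIXL1 are shown because both genes fell and hold the letters CTTTGA, the core that TCF and LEF factors read, on either strand within the same window as above; capitals mark each match.
SP5 (chr2:170715187-170715336, plus strand): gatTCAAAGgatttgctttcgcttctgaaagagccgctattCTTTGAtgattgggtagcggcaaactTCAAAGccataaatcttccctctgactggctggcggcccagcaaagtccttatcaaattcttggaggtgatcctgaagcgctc
MIXL1 (chr1:226223514-226223663, plus strand): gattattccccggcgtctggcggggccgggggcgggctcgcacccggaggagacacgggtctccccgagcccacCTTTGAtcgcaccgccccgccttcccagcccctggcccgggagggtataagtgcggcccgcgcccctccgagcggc

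The SP5 promoter held 3 matches, the first beginning 147 bases before the start, and that of MIXL1 held 1, beginning 76 bases before it. Of 20 Wnt target and streak genes that fell, 12 matched a RefSeq promoter and 4 of these (33.33%) held the letters in 250 bases, CDX2, MIXL1, SP5 and SP8, against 3102 of all 27305 promoters (11.36%). None of the 12 held a CArG box. The letters CTTTGA were also in 4 of the 26 promoters of contractile and smooth muscle genes that rose (15.38%).

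BMP, Nodal and FGF genes had calls in both directions, beside 5.05% higher and 3.32% lower over all genes. Of 25 BMP genes tested 5 rose and 3 fell. NOG, noggin, which binds BMP ligands, was at 9.61, 5.92 and 14.1 CPM at day 5 against 1.67, 2.62 and 2.05 CPM at day 3 (log2 difference 2.29, SE 0.48, adjusted p = 0.00545), and its rise held, as did that of the ligand GDF6 (3.66). BMP4, the ligand that patterns mesoderm, did not pass, at 153, 147 and 109 CPM at day 5 against 185, 230.2 and 148 CPM at day 3 (log2 difference -0.41, SE 0.41, adjusted p = 0.74). For BMP10, a ligand of the trabecular heart (1.93), the call ended without day 5 replicate 1 (adjusted p = 0.0723), day 3 replicate 2 (0.0782) or day 3 replicate 3 (0.146). Of 15 Nodal and activin genes 3 rose and 4 fell. LEFTY2, a feedback antagonist of Nodal, was at 0.873, 0.731 and 0.462 CPM at day 5 against 9.2, 29.8 and 51.4 CPM at day 3 (log2 difference -5.32, SE 0.67, adjusted p = 0.000116), the opposite direction to NODAL. For INHBA, an activin subunit (-2.52), the call ended without day 5 replicate 1 (adjusted p = 0.17) or day 3 replicate 1 (0.169). Of 21 FGF genes 2 rose and 6 fell. FGF19, a ligand of the endocrine branch, was at 0.499, 0.0731 and 0.231 CPM at day 5 against 2.62, 5.24 and 5.08 CPM at day 3 (log2 difference -4.04, SE 0.66, adjusted p = 0.000859), and the falls of FGF4 (-3.97), FGF17 (-5.17) and FGF12 (-2.39) held too. Among feedback genes of the pathway, DUSP6, a phosphatase of ERK, rose (2.02), and the call ended without day 3 replicate 2 (adjusted p = 0.0532) or day 3 replicate 3 (0.0501). SPRY4, a receptor feedback inhibitor, fell (-1.69), and the call ended without day 5 replicate 1 (adjusted p = 0.157), day 3 replicate 2 (0.0532) or day 3 replicate 3 (0.23). FGF8, a ligand of the streak and the second heart field, was at 10.2, 5.63 and 9.93 CPM at day 5 against 5.05, 7.13 and 7.24 CPM at day 3 (log2 difference 0.47, SE 0.42, adjusted p = 0.71) and did not pass.

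No call on a Notch gene held, which is close to the share over all genes tested, where 2.65% held as higher and 1.46% as lower. Of 19 genes tested 3 rose and 2 fell, beside 5.05% and 3.32% over all genes. Without day 5 replicate 1 no Notch gene was called, beside 3.05% and 1.64% of all genes in that fit. HEY1, a Notch target of the atria, was at 27.6, 32.7 and 22.2 CPM at day 5 against 10.5, 9.42 and 12.5 CPM at day 3 (log2 difference 1.4, SE 0.4, adjusted p = 0.0403), and the call ended without day 5 replicate 1 (adjusted p = 0.138), day 3 replicate 1 (0.15), day 3 replicate 2 (0.29) or day 3 replicate 3 (0.148). Of 12 Hedgehog genes 2 rose and 1 fell. IHH, Indian hedgehog, a ligand made by visceral endoderm, was at 69.7, 20.3 and 94.7 CPM at day 5 against 2.24, 3.19 and 1.3 CPM at day 3 (log2 difference 4.84, SE 0.64, adjusted p = 0.000167). For HHIP, a decoy receptor of the pathway (-2.55), the call ended without day 5 replicate 1 (adjusted p = 0.0701). Of 18 retinoic acid genes 3 rose and 5 fell. RXRG, a retinoid receptor, was at 1.37, 1.39 and 1.39 CPM at day 5 against 20.1, 34 and 38.9 CPM at day 3 (log2 difference -4.42, SE 0.49, adjusted p = 4.75e-05). ALDH1A3, an enzyme that makes retinoic acid, fell (-3.89), whereas ALDH1A2, the enzyme of the posterior heart field, did not pass (log2 difference -1.55, SE 0.49, adjusted p = 0.0652). ALDH1A2 was at 4.62, 2.7 and 2.08 CPM at day 5 against 14.3, 8.68 and 5.51 CPM at day 3. CYP26A1, which degrades retinoic acid, fell (-3.24), and the call ended without day 5 replicate 1 (adjusted p = 0.0961), day 5 replicate 2 (0.17), day 5 replicate 3 (0.0571) or day 3 replicate 3 (0.199). DHRS3, which limits retinoic acid and is induced by it, rose (1.96), and the call ended without day 3 replicate 1 (adjusted p = 0.0514) or day 3 replicate 3 (0.071).

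Guidance, adhesion and matrix genes were called in both directions, beside 5.05% higher and 3.32% lower over all genes. Of 23 guidance ligands and receptors 5 rose and 3 fell. ROBO2, a SLIT receptor, was at 129, 125 and 39.3 CPM at day 5 against 3.53, 2.21 and 3.24 CPM at day 3 (log2 difference 5.05, SE 0.56, adjusted p = 4.97e-05). SLIT3, a ligand of that family, was at 149.8, 87.6 and 143 CPM at day 5 against 27.2, 30.5 and 27.1 CPM at day 3 (log2 difference 2.23, SE 0.44, adjusted p = 0.00339). NTN1, netrin, was at 0.998, 1.32 and 1.39 CPM at day 5 against 22.6, 44 and 78.1 CPM at day 3 (log2 difference -5.22, SE 0.59, adjusted p = 5.12e-05), while its receptor UNC5B rose (2.89). These calls held, as did the rise of EPHB2, an ephrin receptor (2.77). Without day 5 replicate 2, 14 guidance genes passed as lower, against 3 with it. Of 19 genes of the epithelial to mesenchymal transition 2 rose and 2 fell, and none of these calls held. VIM, vimentin, rose (1.67), and the call ended without day 5 replicate 1 (adjusted p = 0.0998) or day 3 replicate 3 (0.11). Of 24 basement membrane and integrin genes 2 rose and 4 fell; NID2, nidogen, rose (3.57) and ITGA9, an integrin subunit, fell (-2.86), both calls holding. Of 15 hyaluronan and proteoglycan genes 2 rose and 3 fell. CD44, the hyaluronan receptor, was at 2.5, 1.83 and 3 CPM at day 5 against 21.5, 25.3 and 20.6 CPM at day 3 (log2 difference -3.17, SE 0.45, adjusted p = 0.000299), and BGN, biglycan, fell as well (-2.67).

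Lists of the cell cycle and of central metabolism had almost no calls in the edgeR fit of the 6 libraries. That fit called 5.05% of all genes higher and 3.32% lower, and no difference smaller than 1.36 on the log2 scale. A list of 13 to 27 genes would hold few calls at those shares. None of 25 DNA replication genes, 24 mitosis genes, 27 replication-dependent histones, 22 glycolysis genes, 47 nuclear genes of oxidative phosphorylation and 13 mitochondrially encoded mRNAs passed, with median log2 differences of -0.12, -0.09, 0.03, -0.3, 0.24 and 0.21. At an unadjusted p under 0.05, 2755 of all 16763 genes tested had passed, and those lists held 0, 0, 0, 4, 0 and 0 such genes. DESeq2 called 0, 0, 0, 1, 0 and 0 of them in either direction. Other fits called more of them: with library weights limma voom called 15 of the histones lower, 4 glycolysis genes higher and 11 lower, 4 and 2 DNA replication genes, 4 and 2 genes of oxidative phosphorylation, 3 mitosis genes lower and 0 mitochondrially encoded mRNAs. The fit of all 23 libraries called 3 DNA replication genes higher, and 3 glycolysis genes higher and 3 lower. Without day 5 replicate 2 the mitosis list had 6 falls. Of 21 cyclins and cell cycle inhibitors 2 rose. CDKN2D, an inhibitor of the G1 kinases, was at 2.62, 2.85 and 7.39 CPM at day 5 against 0.81, 1.31 and 0.324 CPM at day 3 (log2 difference 2.37, SE 0.59, adjusted p = 0.0173), and the call ended without day 3 replicate 3 (adjusted p = 0.0871). Of 23 genes for fatty acid use 4 rose. ACSL1, which activates fatty acids, was at 34.7, 39.3 and 15.7 CPM at day 5 against 3, 2.62 and 1.95 CPM at day 3 (log2 difference 3.59, SE 0.48, adjusted p = 0.000187). PPARGC1A, a coactivator of mitochondrial genes, was at 5.12, 18.3 and 3.23 CPM at day 5 against 0.715, 0.655 and 0.648 CPM at day 3 (log2 difference 3.76, SE 0.63, adjusted p = 0.00101). Both calls held, as did that of PYGM, muscle glycogen phosphorylase (2.83), the single call among 15 creatine and glycogen genes. The single call among 23 genes of the tricarboxylic acid cycle was IDH2, an isocitrate dehydrogenase (1.71): the call ended without day 5 replicate 1 (adjusted p = 0.127), day 5 replicate 3 (0.0658), day 3 replicate 1 (0.121), day 3 replicate 2 (0.0683) or day 3 replicate 3 (0.181).

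Growth and stress genes rose in part, beside rises of 5.05% over all genes. H19, a long non-coding RNA expressed from the maternal allele, was at 395, 389.99 and 470.4 CPM at day 5 against 9.53, 10.7 and 3.57 CPM at day 3 (log2 difference 5.77, SE 0.57, adjusted p = 1.7e-05). IGF2, the growth factor expressed from the paternal allele beside it, was at 279, 260.4 and 308 CPM at day 5 against 15, 14 and 8.65 CPM at day 3 (log2 difference 4.55, SE 0.49, adjusted p = 3.53e-05). Both were apart from day 3 in every library. They were among 4 rises of 16 imprinted genes tested, of which 2 held. Of 24 stress genes 4 rose, of which 1 held, PHGDH, an enzyme of serine synthesis, at 986, 717 and 1408 CPM at day 5 against 133, 228 and 192 CPM at day 3 (log2 difference 2.58, SE 0.44, adjusted p = 0.00133). For ASNS, asparagine synthetase (2.31), the call ended without day 3 replicate 3 (adjusted p = 0.0537). Of 18 immediate early genes 2 rose, CCN1 (4.36) and CCN2 (2.7), secreted proteins that the YAP pathway and serum response factor activate. CCN2 was at 91.1, 79.4 and 35.3 CPM at day 5 against 13.3, 8.76 and 10.4 CPM at day 3. FOS, a transcription factor of the early response, did not pass, at 13.3, 11.4 and 15.5 CPM at day 5 against 9.73, 10.8 and 11.2 CPM at day 3 (log2 difference 0.4, SE 0.39, adjusted p = 0.735).

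Of 10 long non-coding RNAs of heart and mesoderm tested, 5 rose, beside 5.05% over all genes. HAND2-AS1, which starts beside HAND2 on the other strand, was at 6.49, 13.2 and 9.24 CPM at day 5 against 0.906, 0.737 and 0 CPM at day 3 (log2 difference 4.04, SE 0.66, adjusted p = 0.000896). CARMN, the host of the miR-143 and miR-145 genes of smooth muscle, was at 69.7, 63.7 and 82.4 CPM at day 5 against 9.96, 11.1 and 8.32 CPM at day 3 (log2 difference 2.94, SE 0.43, adjusted p = 0.0004). TBX5-AS1 had 2 counts in all at day 3 and was at 2.12, 4.02 and 1.85 CPM at day 5 (adjusted p = 0.000168). With the strand setting not given, reads of these genes and of their neighbours cannot be told apart where they overlap.

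The lipins, phosphatidate phosphatases of which LPIN1 is named in the series title, did not pass in the edgeR fit of the 6 libraries. LPIN1 was at 26.2, 33 and 10.6 CPM at day 5 against 86.2, 52.2 and 59.1 CPM at day 3 (log2 difference -1.46, SE 0.47, adjusted p = 0.0762). With GC and length trends removed it passed as lower (log2 difference -1.42, adjusted p = 0.00291), and likewise with library weights in limma voom (-1.13, adjusted p = 0.000156), by DESeq2 (adjusted p = 0.0212), in the fit of all 23 libraries (0.000424) and without day 5 replicate 2 (0.000909). LPIN2 was at 72.1, 63.8 and 23.1 CPM at day 5 against 54.8, 42.5 and 61.6 CPM at day 3 (log2 difference 0.04, SE 0.46, adjusted p = 0.978), and LPIN3 at 6.86, 4.53 and 13.4 CPM at day 5 against 6.29, 8.93 and 10.8 CPM at day 3 (log2 difference -0.01, SE 0.48, adjusted p = 0.996).

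Of the genes that averaged 20 CPM or more on their higher day, did not overlap between days and kept their call throughout, 179 rose and 76 fell. The largest rises outside the groups above included CRMA (8.01), POPDC2 (7.44), a membrane protein of heart and skeletal muscle that binds cyclic AMP, and TECRL (7.62), an enzyme-like protein of the endoplasmic reticulum in heart. POPDC2 was at 79.8, 52.9 and 135 CPM at day 5 against 0.715, 0.573 and 0.216 CPM at day 3 (log2 difference 7.44, SE 0.66, adjusted p = 8.25e-06). TECRL was at 11.9, 106 and 19.9 CPM at day 5 against 0.524, 0 and 0 CPM at day 3 (log2 difference 7.62, SE 1.06, adjusted p = 0.000263), with replicate 2 far above its partners. The largest falls outside them included TNFRSF11B, osteoprotegerin, a decoy receptor (-4.95), DRD2, a dopamine receptor (-5.11), CST1, a secreted cysteine protease inhibitor (-4.57), PPP1R17, a phosphatase inhibitor (-4.75), and MOBP, a protein of myelin (-4.32). CST1 was at 2.99, 0.439 and 1.39 CPM at day 5 against 19.7, 34.7 and 61.7 CPM at day 3 (log2 difference -4.57, SE 0.67, adjusted p = 0.0004), and MOBP was at 1.62, 1.39 and 0.693 CPM at day 5 against 33.2, 17.8 and 28.9 CPM at day 3 (log2 difference -4.32, SE 0.51, adjusted p = 6.92e-05).

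Genes with at least 20 CPM at day 5 that spread most among its 3 libraries were all highest in replicate 2. The 10 widest were TGFBR3, PRRX1, SEPTIN11, DDR2, IL13RA1, BLOC1S6, SERINC1, TECRL, PEG3 and GNG2. PRRX1, a homeobox factor of mesenchyme, was at 10.2, 73.3 and 6.47 CPM at day 5 against 44.7, 17.5 and 2.38 CPM at day 3, and TGFBR3, the TGF-beta coreceptor betaglycan, at 17.1, 69.7 and 5.08 CPM at day 5 against 18.1, 17.2 and 18.2 CPM at day 3; neither passed (adjusted p = 0.856 and 0.649). DDR2, a collagen receptor of fibroblasts, was at 14.5, 83.6 and 8.08 CPM at day 5 against 1.19, 0.409 and 0.757 CPM at day 3, and its rise passed (log2 difference 5.46, SE 0.83, adjusted p = 0.000493). With GC and length trends removed, the day 5 libraries were at 12.9, 45 and 12.2 CPM for PRRX1 and 17.1, 52.5 and 15 CPM for DDR2. The longest annotated transcripts of these 10 genes had 32.9 to 43.5% GC, against a median of 48.02% over all genes tested.

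Day 7, also labelled as cardiac progenitors, served to place each day 5 library along the course. For 3357 genes higher at day 7 than at day 3 by the same test (19.9% of 16879 tested), the median gene had covered 56.4%, 35.2% and 60.8% of the log2 difference in the day 5 libraries, and for 3277 genes lower at day 7 (19.4%), 68.1%, 34.1% and 114.3%, so that replicate 2 stood nearest to day 3. Among genes changed at least 4-fold between those days the order did not remain: the medians were 52.3%, 49.6% and 50.2% for 1104 genes that were higher and 71.8%, 87.1% and 83.8% for 516 that were lower. At day 7 the mean levels were 303 ± 22.2 CPM for NKX2-5, 2123 ± 208 for TNNT2, 3684 ± 312 for MYL7 and 2.45 ± 2.91 for WT1 (SD, n = 3). For EOMES and SP5 they were 1.9 ± 0.846 and 13.1 ± 4.39 CPM.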

How the data were processed

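The submitters' processing notes and design text name Trim Galore 0.65 (reads cut to 50 bases), STAR 2.7.0, the GRCh38 build and HTSeq counting on GENCODE 38. Libraries were TruSeq Stranded Total RNA with ribosomal RNA depletion, sequenced paired-end, per the labels' protocols; the strand setting of the counting is not given in the sources used here. The deposited unit is the raw count, whole numbers per gene and library. Of 57521 genes, 44 pseudoautosomal Y copies with 0 counts were left out. Symbols and GC content came from GENCODE 44.

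Genes were filtered by filterByExpr (minimum of 10 counts), scaled by TMM and tested in edgeR 4.0.16 (R 4.3.3, limma 3.58.1) with a robust quasi-likelihood fit of the 6 libraries, adjusted by Benjamini-Hochberg; a call is an adjusted p under 0.05. Log2 differences are day 5 minus day 3, with SE from the F statistic. Fitted p-values are compared across settings listed at the end, including DESeq2 1.42.0. The members and the 52 gene lists (1046 members, 1044 matched) were chosen with earlier results of these data known. Genes named were the 3 markers, list members, lipins, the 15 largest rises and falls (20 CPM or more on average on the higher day, no overlap, call holding without each library) and the 10 genes widest at day 5; within lists, the members named were chosen after their values were seen, mostly among calls that held. Same-numbered libraries of the 2 days did not deviate together, so the numbers were not taken as pairs. Promoters came from RefSeq (GRCh38.p14). Depth ranged from 4330334 to 20975832 counts, which sets the precision of weakly expressed genes.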

Additional observations from a re-analysis of the deposited data

How the results depend on the processing

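Of the counts of calls, 846 higher and 556 lower, those under DESeq2's size factors, upper-quartile factors, library totals, no filter, no mitochondrially encoded genes, the fit without robust moderation and DESeq2 stayed within 1.5 times. A minimum of 50 counts gave 488 and 267, with fewer genes tested, and thinning to the smallest library gave 597 and 350, with fewer counts. Library weights in limma voom, which gave day 5 replicate 1 a weight of 5.855 and replicates 2 and 3 weights of 0.196 and 0.312, gave 2872 and 3070, so that 48.3% of calls were rises, against 60.3%. The fit of all 23 libraries gave 2290 and 1408, and removal of GC and length trends, chosen after seeing the data, 1572 and 1385; the cause was not tested. Leaving out each library gave 553 to 1849 rises and 297 to 1863 falls, with 57.1% to 96.5% of calls kept; without day 3 replicate 3 there were 560 and 360. Leaving out day 3 replicate 1 and day 5 replicate 2 together, also added later, gave 993 and 693. The replicate block gave 743 and 507; the correlations of same-numbered libraries' deviations were -0.274, -0.616 and 0.38, so these samples share only a number.

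With GC and length trends removed the median standard deviation of TMM-scaled log2 CPM was 0.324 at day 5 and 0.211 at day 3, against 0.668 and 0.358 before. The position of day 5 replicate 2 for genes lower at day 7 was 34.1% over all called genes and 87.1% over genes changed at least 4-fold. Of the genes named with a test, HOXB7 apart, 24 lost their call without day 5 replicate 1, 1 without replicate 2 and 3 without replicate 3. HOXB7 lost its call without each of these libraries as well. No called gene among those named changed direction under any alternative run. Of genes that did not pass, LPIN2 had -0.025 with no filter, -0.061 with the replicate block, -0.068 without both libraries named above, -0.034 with trends removed and -0.22 to 0.38 with single libraries left out. LPIN3 had 0.023 with DESeq2's size factors, 0.011 with 50 counts, 0.028 with DESeq2, 0.14 thinned, 0.105 without both libraries and -0.58 to 0.32 with single libraries left out. Without both libraries PRRX1 had -0.19 and TGFBR3 -0.58, and TGFBR3 had -0.017 with library weights. With single libraries left out, PRRX1 ranged between -1.28 and 1.77, TGFBR3 between -0.59 and 1.31, SOX2 between -0.78 and 0.63, ATP2A2 between -0.061 and 0.451 and TNNI3 between -0.785 and 0.075.

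The 3 day 5 libraries differ in composition more than those of day 3, and the smallest difference that the edgeR fit called was 1.36 on the log2 scale. Library, culture and day cannot be told apart further, since no label ties libraries to cultures or runs.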
